A study of Mus musculus with 16 samples.

Results

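Transcripts of heart muscle cells were followed in macrophages sorted from the mouse heart and in monocytes sorted from blood. The 10 transcripts were chosen by name, as Mb, Tnnt2, Tnni3, Tnnc1, Myl2, Myl3, Myh6, Actc1, Ryr2 and Nppa, and every probe that carries 1 of these symbols was read array by array. They have 11 probes on the array, because Myh6 has 2. Of the 10 genes, 9 passed a filter on dim probes and were tested among 21897 genes or unnamed features, and Ryr2 did not pass. A member that passes such a filter through the group in which it is bright tends to differ between groups, so the counts below are given beside the same counts over all genes.

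The study hybridised 16 single-colour Agilent arrays, 4 for each of 4 sorted populations of untreated C57BL/6 mice. CCR2+ Mac were heart macrophages positive for CD45, MerTK and CD64, negative for Ly6c, high for CCR2 and high for MHCII. MHC-IIHi Mac had the same CD45, MerTK, CD64 and Ly6c gates but were negative for CCR2, high for MHCII and low for CD11c, and MHC-IIlo Mac were negative for CCR2 and CD11c and low for MHCII. Ly6cHi Mono were Ly6c-high blood monocytes. Hearts were cut up and enzymatically digested, DAPI-negative live cells were sorted into Trizol, and 1 ng of RNA per sample was used. The labels give no sex or age, and do not say whether the replicates came from separate mice, whether mice were pooled, or whether 1 mouse gave several populations. P-values therefore measure the spread between these arrays, which may be technical.

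Cardiomyocytes contract when calcium, let out of the sarcoplasmic reticulum through the ryanodine receptor RyR2, binds troponin C on the actin thin filament. Troponin I and troponin T then move tropomyosin aside, and myosin heads of the thick filament, each a heavy chain with light chains, pull on actin. Myoglobin stores oxygen for this work, and atrial natriuretic peptide is a hormone released mainly by atrial muscle. None of these genes is used as a macrophage marker.

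What each array measured was hybridisation to a probe of 60 bases. The following 4 probes are shown because they carry the troponin readings and the Myh6 reading on which CCR2+ Mac and MHC-IIHi Mac did not overlap. Each position is the start that the array files give for the probe, the letters are the probe as designed, and no base is set apart by capitals.
Tnnt2 at 863: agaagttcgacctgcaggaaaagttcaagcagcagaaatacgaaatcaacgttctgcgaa
Tnni3 at 440: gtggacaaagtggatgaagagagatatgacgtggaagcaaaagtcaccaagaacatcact
Tnnc1 at 212: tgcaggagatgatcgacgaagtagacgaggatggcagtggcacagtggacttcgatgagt
Myh6 at 308: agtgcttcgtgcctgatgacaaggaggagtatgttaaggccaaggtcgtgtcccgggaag
By RefSeq, Tnnt2 lies on mouse chromosome 1, Tnni3 on chromosome 7, and Tnnc1 and Myh6 on chromosome 14. Mb is on chromosome 15, Myl2 on 5, Myl3 on 9, Actc1 on 2, Ryr2 on 13 and Nppa on 4. The probes were not placed on a genome, so exon boundaries and isoforms are not given.

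Promoters of the 10 genes were read from RefSeq's table for build GRCm38.p6, as the 250 bases before each annotated start, which gave 14 windows. The CArG box, the motif bound by serum response factor in muscle genes, was found in the windows of Myl3 and Actc1, against 1.47% of 32851 promoter windows of the same length. The sequences below are on the gene's strand, with the CArG box in capitals. The Myl3 window is chr9:110763428-110763677 on the plus strand, with its box starting 85 bases before the start, and the Actc1 window is chr2:114052876-114053125 on the minus strand, with its box starting 47 bases before the start.
Myl3: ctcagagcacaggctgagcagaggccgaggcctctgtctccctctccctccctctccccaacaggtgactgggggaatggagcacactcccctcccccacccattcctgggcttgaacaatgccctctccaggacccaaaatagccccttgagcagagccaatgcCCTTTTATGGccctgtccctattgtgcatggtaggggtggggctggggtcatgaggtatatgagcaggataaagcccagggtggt
Actc1: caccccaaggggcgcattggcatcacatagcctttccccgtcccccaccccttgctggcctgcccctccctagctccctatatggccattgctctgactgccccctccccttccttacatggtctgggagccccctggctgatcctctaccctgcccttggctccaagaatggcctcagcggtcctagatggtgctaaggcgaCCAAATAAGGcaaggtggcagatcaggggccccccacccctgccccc
TATAAA on either strand was found in windows of Myl2 and Nppa, against 12.4% of all windows. The MEF2 site was found in 0 of the 14 windows, against 2.92% of all. Each motif was searched on both strands, and a match is a match of letters only.

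Each array held 44397 spots, of which 1377 were controls, no spot was saturated, and 52.8% to 69.3% of spots exceeded background well enough to be marked so by the scanner software. The processed signal's 75th percentile was 941 to 1670 on the 12 heart arrays and 819 to 996.2 on the 4 monocyte arrays. A level below is log2 of the processed signal minus log2 of that percentile, so a level of 0 is a signal equal to it. A level is compared between arrays for 1 probe and never between probes. Replicate number and slide coincided, and each slide carried 1 array of every group. Each group always occupied 1 and the same place on the slides, and that place and the group cannot be told apart. Each of the 16 columns of the deposited value table correlated best with the scanner array of a differently labelled sample (lowest r of the best matches 0.995, highest r with the array of the same label 0.969), in 12 columns with an array of another group. The values here are those of the scanner files under the labels of those files. Which labelling is right was not settled. Under those labels the macrophage and myeloid list, 10 genes such as Csf1r and Cd68, was well above background in full on all 12 heart arrays, with 3 of the 10 higher in each heart group and 4, 3 and 3 lower in CCR2+ Mac, MHC-IIHi Mac and MHC-IIlo Mac than in Ly6cHi Mono. Mertk, the receptor used in the sort, was dim on the 4 monocyte arrays. It was at least 36.6-fold higher in CCR2+ Mac, 53.2-fold in MHC-IIHi Mac and 57.4-fold in MHC-IIlo Mac than in Ly6cHi Mono. These readings set heart arrays against blood arrays and do not show which heart array belongs to which heart group.

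Most cardiomyocyte transcripts were far higher in all 3 heart macrophage populations than in blood monocytes. Of the 9 members tested, 7 were higher in CCR2+ Mac (Mb, Tnnt2, Actc1, Tnni3, Myl2, Myl3 and Myh6), and the same 7 and Nppa were higher in MHC-IIHi Mac and in MHC-IIlo Mac. The test was limma's moderated test at an adjusted p under 0.05, with Benjamini-Hochberg adjustment over all 21897 features. By the same rule 9.9% of all features were higher in CCR2+ Mac than in Ly6cHi Mono, 10.1% in MHC-IIHi Mac and 10.1% in MHC-IIlo Mac, and 21.8%, 21.5% and 21.4% passed in either direction. For the 7 members, no array of a heart group overlapped with a monocyte array, and 10.6%, 10.4% and 10.4% of all features lay above the monocyte arrays without overlap. The median difference over the 9 members was 3.15 in CCR2+ Mac, 3.48 in MHC-IIHi Mac and 3.23 in MHC-IIlo Mac on the log2 scale, and over all features it was -0.1, -0.05 and -0.06. With the mean of the 3 macrophage groups set against Ly6cHi Mono, 8 of the 9 members were higher, against 12.4% of all features (27.5% passed in either direction). The 3 comparisons share the same 4 monocyte arrays, and their counts are not separate evidence. These counts come from a fit that did not use the pairing of arrays by slide. With the replicate number as a block, which compares arrays of the same slide, 8, 9 and 9 members were higher. With that block 7388, 6941 and 7047 of all features passed in either direction. In sorted bulk RNA, fewer cells of a type and less RNA per cell cannot be told apart.

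**Figure D1:**
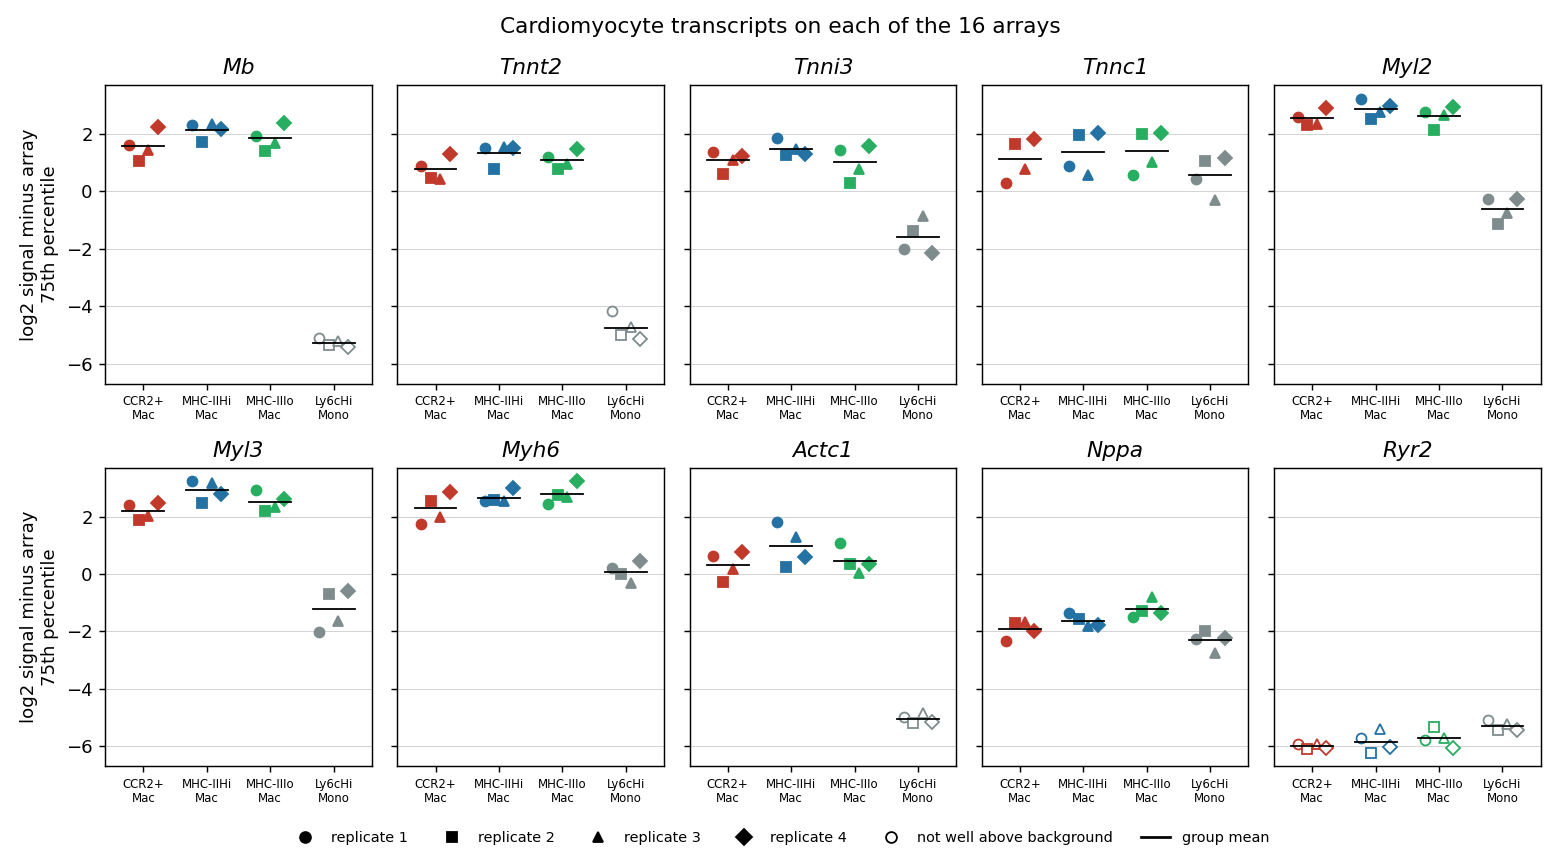
Level of each cardiomyocyte transcript on each array (vertical axis, log2 of the processed signal minus log2 of the array's 75th percentile) in the 4 sorted groups (horizontal axis). Each symbol is 1 array, shaped by replicate number, open where the probe was not well above background, and the bars are group means; Mb, Tnnt2 and Actc1 are open on all 4 monocyte arrays and filled on all 12 heart arrays, and Ryr2 is open on all 16.

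Mb encodes myoglobin, the oxygen-binding protein of heart and red skeletal muscle. Its levels on replicates 1 to 4 were 1.63, 1.06, 1.44 and 2.24 in CCR2+ Mac, 2.32, 1.72, 2.36 and 2.17 in MHC-IIHi Mac, and 1.92, 1.41, 1.69 and 2.38 in MHC-IIlo Mac, against -5.12, -5.36, -5.22 and -5.44 in Ly6cHi Mono. All 12 heart arrays were above all 4 monocyte arrays, and the 3 heart groups overlapped one another. In the arbitrary units of the scanner, the Mb signal ran from 3470 to 7970 on the heart arrays, while on the monocyte arrays it ran from 22 to 23.6 and was not well above background on any. A fold change against a group that dim has only a lower bound, computed against the lowest signal that was called well above background on each monocyte array. Mb was at least 25.5-fold higher in CCR2+ Mac (adjusted p = 1.88e-10), 37.3-fold in MHC-IIHi Mac (adjusted p = 3.62e-11) and 30.5-fold in MHC-IIlo Mac (adjusted p = 5.03e-11) than in Ly6cHi Mono. Each adjusted p is that of the measured difference, and the bound itself was not tested.

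The thin filament was represented by Tnnt2, Tnni3, Tnnc1 and Actc1. Tnnt2 encodes cardiac troponin T, which ties the troponin complex to tropomyosin. Its levels were 0.88, 0.46, 0.44 and 1.31 in CCR2+ Mac, 1.52, 0.8, 1.55 and 1.5 in MHC-IIHi Mac, and 1.19, 0.8, 0.96 and 1.49 in MHC-IIlo Mac, against -4.16, -4.99, -4.74 and -5.14 in Ly6cHi Mono. As with Mb, all heart arrays lay above all monocyte arrays, none of which was well above background. Tnnt2 was at least 14.4-fold higher in CCR2+ Mac (adjusted p = 1.32e-09), 21.5-fold in MHC-IIHi Mac (adjusted p = 2.95e-10) and 18.3-fold in MHC-IIlo Mac (adjusted p = 4.42e-10) than in Ly6cHi Mono.

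Actc1 encodes cardiac alpha-actin, the actin of the adult heart's thin filament. Its levels were 0.62, -0.29, 0.17 and 0.76 in CCR2+ Mac, 1.8, 0.26, 1.29 and 0.6 in MHC-IIHi Mac, and 1.07, 0.35, 0.02 and 0.35 in MHC-IIlo Mac, against -4.98, -5.19, -4.83 and -5.16 in Ly6cHi Mono. The monocyte arrays were again dim throughout and did not overlap with the heart arrays. Actc1 was at least 10.5-fold higher in CCR2+ Mac (adjusted p = 1.74e-08), 16.8-fold in MHC-IIHi Mac (adjusted p = 3.27e-09) and 11.5-fold in MHC-IIlo Mac (adjusted p = 7.95e-09) than in Ly6cHi Mono.

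Tnni3, cardiac troponin I, holds the thin filament off at low calcium. Its levels were 1.36, 0.6, 1.11 and 1.25 in CCR2+ Mac, 1.88, 1.27, 1.47 and 1.29 in MHC-IIHi Mac, and 1.43, 0.28, 0.8 and 1.6 in MHC-IIlo Mac, against -2.01, -1.39, -0.84 and -2.16 in Ly6cHi Mono. They averaged 1.08 ± 0.34 in CCR2+ Mac, 1.48 ± 0.28 in MHC-IIHi Mac and 1.03 ± 0.61 in MHC-IIlo Mac, against -1.6 ± 0.6 in Ly6cHi Mono (SD, n = 4 each), and the probe was well above background on all 16 arrays. Its lowest heart level, 0.28 in MHC-IIlo Mac, was above the highest monocyte level, -0.84. Tnni3 was 6.4-fold higher in CCR2+ Mac (log2 difference 2.68 ± 0.33 SE, adjusted p = 3.05e-05), 8.43-fold in MHC-IIHi Mac (adjusted p = 5.24e-06) and 6.19-fold in MHC-IIlo Mac (adjusted p = 2.51e-05) than in Ly6cHi Mono.

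Tnnc1 encodes troponin C, the calcium sensor of the thin filament in heart and slow skeletal muscle, and its differences between heart and blood were smaller than those of Tnnt2 and Tnni3, a contrast between genes that was not tested. Its levels on replicates 1 to 4 were 0.3, 1.64, 0.77 and 1.82 in CCR2+ Mac, 0.89, 1.98, 0.57 and 2.03 in MHC-IIHi Mac, and 0.57, 2.02, 1.04 and 2.03 in MHC-IIlo Mac, against 0.43, 1.07, -0.31 and 1.15 in Ly6cHi Mono. The monocyte arrays overlapped with the arrays of each heart group, and the probe was well above background on all 16. The differences from Ly6cHi Mono were 0.55 ± 0.47 for CCR2+ Mac (adjusted p = 0.471), 0.79 ± 0.47 for MHC-IIHi Mac (adjusted p = 0.297) and 0.83 ± 0.47 for MHC-IIlo Mac (adjusted p = 0.265). With the replicate number as a block, which compares arrays of the same slide, the same differences had adjusted p = 0.0362, 0.00575 and 0.00418.

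The thick filament was represented by Myl2, Myl3 and Myh6. Myl3, the essential light chain of ventricular myosin, had levels of 2.4, 1.89, 2.02 and 2.49 in CCR2+ Mac, 3.23, 2.48, 3.19 and 2.78 in MHC-IIHi Mac, and 2.94, 2.21, 2.35 and 2.6 in MHC-IIlo Mac, against -2.03, -0.71, -1.62 and -0.58 in Ly6cHi Mono. Heart and monocyte arrays did not overlap, and the probe was well above background on all 16. Myl3 was 10.8-fold higher in CCR2+ Mac (log2 difference 3.43 ± 0.31, adjusted p = 1.25e-06), 17.9-fold in MHC-IIHi Mac (4.16 ± 0.31, adjusted p = 9.82e-08) and 13.6-fold in MHC-IIlo Mac (3.76 ± 0.31, adjusted p = 2.79e-07) than in Ly6cHi Mono.

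Myl2 encodes the regulatory light chain, which is phosphorylated to tune the force of ventricular muscle. Its levels were 2.59, 2.33, 2.36 and 2.92 in CCR2+ Mac, 3.21, 2.52, 2.77 and 2.98 in MHC-IIHi Mac, and 2.77, 2.14, 2.65 and 2.93 in MHC-IIlo Mac, against -0.26, -1.14, -0.76 and -0.26 in Ly6cHi Mono. It averaged 2.55 ± 0.27 in CCR2+ Mac, 2.87 ± 0.29 in MHC-IIHi Mac and 2.62 ± 0.34 in MHC-IIlo Mac, against -0.6 ± 0.43 in Ly6cHi Mono (SD, n = 4 each), and heart and monocyte arrays did not overlap. Myl2 was 8.89-fold higher in CCR2+ Mac (log2 difference 3.15 ± 0.25, adjusted p = 2.66e-07), 11.1-fold in MHC-IIHi Mac (adjusted p = 6e-08) and 9.37-fold in MHC-IIlo Mac (adjusted p = 1.28e-07) than in Ly6cHi Mono.

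Myh6 encodes alpha-myosin heavy chain, the main motor of the adult mouse heart, and was read by a probe near the start of the transcript (at 308) and by a brighter probe at 6003, which was the 1 tested. At 6003 the levels were 1.76, 2.55, 1.98 and 2.85 in CCR2+ Mac, 2.53, 2.58, 2.53 and 3 in MHC-IIHi Mac, and 2.43, 2.77, 2.69 and 3.24 in MHC-IIlo Mac, against 0.21, -0.01, -0.32 and 0.44 in Ly6cHi Mono. The heart arrays lay above the monocyte arrays, and all 16 were well above background. By this probe Myh6 was 4.6-fold higher in CCR2+ Mac (2.2 ± 0.26, adjusted p = 2.1e-05), 5.98-fold in MHC-IIHi Mac (2.58 ± 0.26, adjusted p = 2.78e-06) and 6.52-fold in MHC-IIlo Mac (2.7 ± 0.26, adjusted p = 1.52e-06) than in Ly6cHi Mono.

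At 308 the Myh6 levels were -2.19, -1.69, -2.08 and -1.5 in CCR2+ Mac, -0.37, -1.11, 0.2 and -0.61 in MHC-IIHi Mac, and -0.35, -0.63, -1.57 and -0.41 in MHC-IIlo Mac, against -2.82, -2.93, -3.23 and -2.92 in Ly6cHi Mono. This probe was well above background on all 12 heart arrays and on 0 of the 4 monocyte arrays. In a fit with each of 27643 probes as a feature, which was added after the data were seen, Myh6 at 308 was at least 2.1-fold higher in CCR2+ Mac (adjusted p = 0.015), 5.5-fold in MHC-IIHi Mac (adjusted p = 1.72e-05) and 4.57-fold in MHC-IIlo Mac (adjusted p = 5.21e-05) than in Ly6cHi Mono. On monocyte replicates 1, 2 and 4 the probe's own dim level was above the lowest signal called well above background. These bounds therefore rest largely on dim readings.

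Ryr2, the calcium release channel, was not well above background on any of the 16 arrays. Its signal was 22.9 to 25.2 in CCR2+ Mac, 22.1 to 25.7 in MHC-IIHi Mac, 22.1 to 39.8 in MHC-IIlo Mac and 21.7 to 23.8 in Ly6cHi Mono. With 1 probe at 16311 at this signal, neither a level nor a difference can be given for Ryr2.

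Nppa encodes the precursor of atrial natriuretic peptide. Its levels were -2.32, -1.7, -1.66 and -1.97 in CCR2+ Mac, -1.37, -1.58, -1.8 and -1.76 in MHC-IIHi Mac, and -1.49, -1.29, -0.79 and -1.37 in MHC-IIlo Mac, against -2.27, -2, -2.74 and -2.22 in Ly6cHi Mono. The arrays of MHC-IIHi Mac and of MHC-IIlo Mac lay above those of Ly6cHi Mono, while those of CCR2+ Mac overlapped with them. Nppa was 1.6-fold higher in MHC-IIHi Mac (0.68 ± 0.22, adjusted p = 0.0372) and 2.1-fold higher in MHC-IIlo Mac (1.07 ± 0.22, adjusted p = 0.002) than in Ly6cHi Mono, and in CCR2+ Mac the difference was 0.39 ± 0.22 (adjusted p = 0.235). With a normexp background correction the difference was 0.18 in MHC-IIHi Mac (adjusted p = 0.549) and 0.51 in MHC-IIlo Mac (adjusted p = 0.069), and neither passed. Leaving out any 1 of 6 arrays, replicates 1, 2 and 4 of MHC-IIHi Mac and 1, 3 and 4 of Ly6cHi Mono, also ended the call in MHC-IIHi Mac (adjusted p = 0.0546 to 0.124). Nppa is the 1 member printed on several spots, 10 per array, and their SD within an array was 0.03 to 0.241 on the log2 scale.

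**Figure D2:**
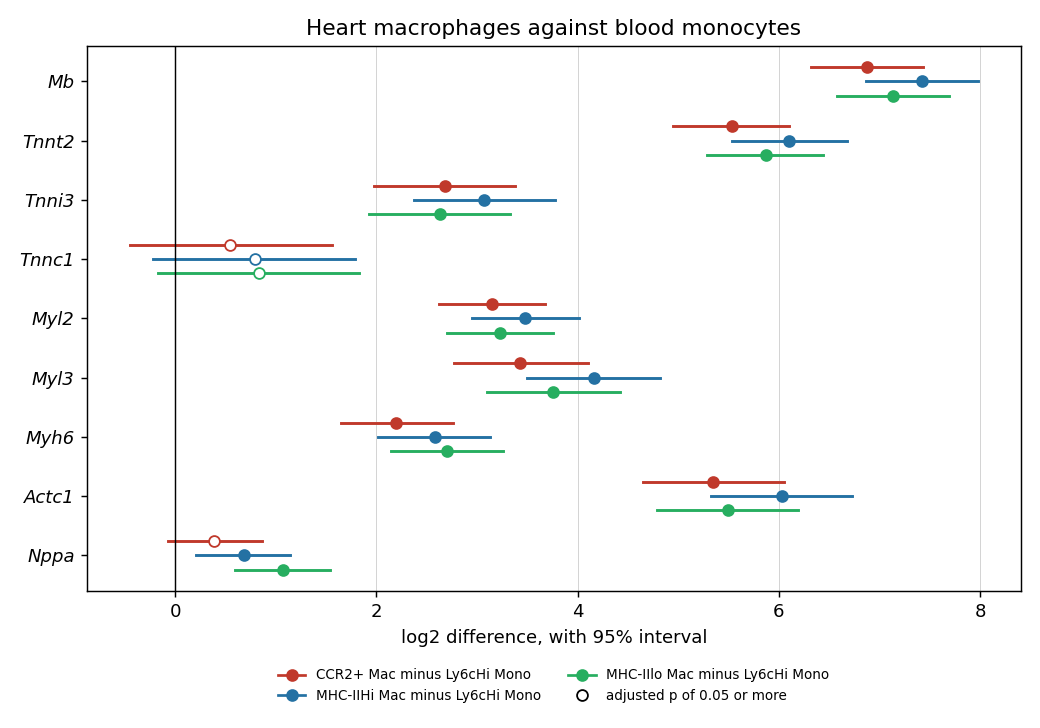
Log2 difference of each member between each heart macrophage group and Ly6cHi Mono (horizontal axis), with its 95% interval from limma over 4 arrays per group. Filled points passed an adjusted p of 0.05, open points did not; Mb, Tnnt2 and Actc1 lie farthest to the right but were not well above background in Ly6cHi Mono, so their plotted differences use dim signals, while Tnnc1 and, in CCR2+ Mac, Nppa are open.

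Among the 3 heart macrophage groups, none of the 9 tested members passed limma's test in any pair. By the same rule 1.26% of all features passed between CCR2+ Mac and MHC-IIHi Mac, 2.82% between CCR2+ Mac and MHC-IIlo Mac, and 0.0731% between MHC-IIHi Mac and MHC-IIlo Mac. At an unadjusted p under 0.05, 1 member (Myl3) passed between CCR2+ Mac and MHC-IIHi Mac, 1 (Nppa) between CCR2+ Mac and MHC-IIlo Mac, and 0 between MHC-IIHi Mac and MHC-IIlo Mac, against 9.96%, 11.7% and 3.97% of all features. No other tool was run. The signs still lay mostly on 1 side. All 9 differences of CCR2+ Mac from MHC-IIHi Mac were below 0, with a median of -0.4 against -0.03 over all features. Of the differences of CCR2+ Mac from MHC-IIlo Mac, 8 were below 0, with a median of -0.28 against -0.04, and of those of MHC-IIHi Mac from MHC-IIlo Mac, 6 were above 0, with a median of 0.25 against 0. The members share arrays and are not replicates of a difference, and the first and second of these comparisons share the CCR2+ arrays. Every comparison between heart groups, here and below, rests on the scanner labels, which the deposited value table contradicts.

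The intervals show how large a difference could go unseen. For Mb, CCR2+ Mac minus MHC-IIHi Mac was -0.55 (95% interval -1.1 to 0.01), and for Tnnt2 it was -0.57 (-1.15 to 0). For Myl3 it was -0.72 (-1.39 to -0.06, unadjusted p = 0.0343, adjusted p = 0.432), with the same sign on 4 of 4 slides, though the groups overlapped. Actc1 had -0.67 (-1.37 to 0.03) in the same pair. Myl2, read with the smallest error of the light chains, had -0.33 (-0.86 to 0.2) in that pair and -0.08 (-0.61 to 0.45) against MHC-IIlo Mac. Nppa, the member with the smallest unadjusted p, had -0.68 ± 0.22 in CCR2+ Mac minus MHC-IIlo Mac (-1.14 to -0.21, unadjusted p = 0.00743, adjusted p = 0.151). Every CCR2+ array was below every MHC-IIlo array for Nppa, a separation found in that direction for 4.03% of all features. Tnnc1 had the widest intervals, -1.24 to 0.77 for CCR2+ Mac minus MHC-IIHi Mac and -1.28 to 0.73 for CCR2+ Mac minus MHC-IIlo Mac.

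**Figure D3:**
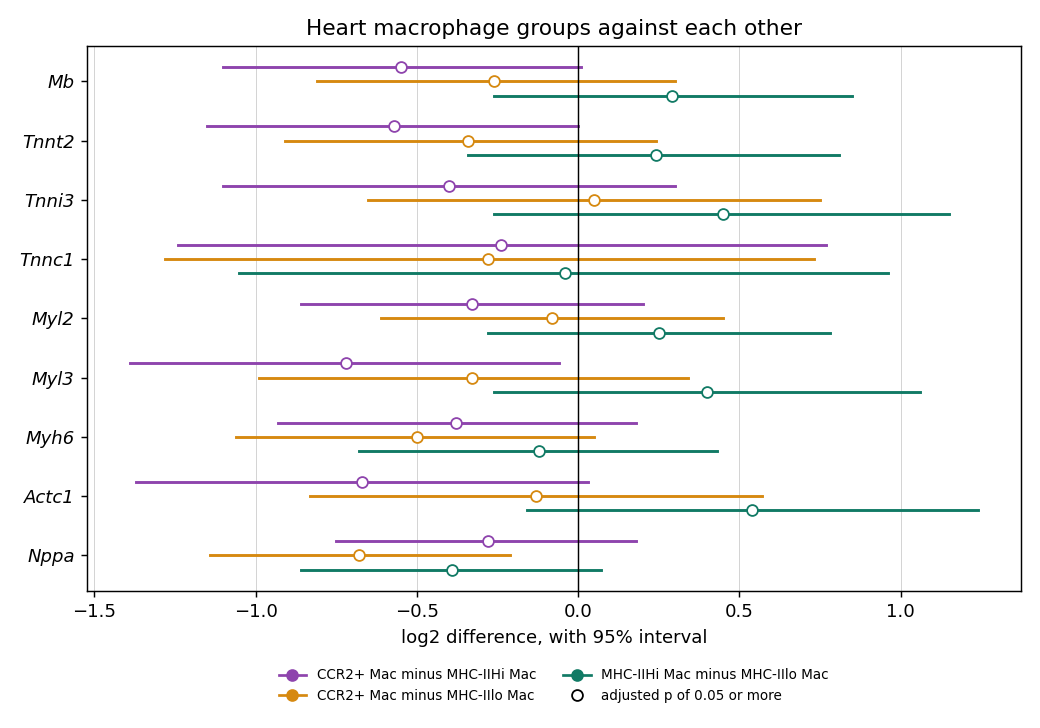
Log2 difference of each member between pairs of heart macrophage groups (horizontal axis), with its 95% interval from limma over 4 arrays per group. All points are open, since no member passed an adjusted p of 0.05, and the 9 differences of CCR2+ Mac from MHC-IIHi Mac all lie left of 0.

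The Myh6 probe at 308 was the exception at the level of single probes. On it every CCR2+ array (-2.19 to -1.5) was below every MHC-IIHi array (-1.11 to 0.2). Such a separation was not rare, since 7.79% of all features tested by gene did not overlap in that pair, in either direction. The same share over single probes is not given. In the fit with each probe as a feature the difference of CCR2+ Mac from MHC-IIHi Mac was -1.39 ± 0.3 (adjusted p = 0.0322), where 0.673% of all probes were lower by the same rule and 1.33% passed in either direction. It passed in 13 of 21 alternative fits, with adjusted p from 0.0121 to 0.119, and did not pass with normexp (adjusted p = 0.103), with median scaling (adjusted p = 0.0767) or without any 1 of 6 single arrays, replicates 1, 2 and 3 of CCR2+ Mac and 1, 3 and 4 of MHC-IIHi Mac (adjusted p = 0.0667 to 0.119). Against MHC-IIlo Mac the difference was -1.12 ± 0.3 (adjusted p = 0.064), which passed in 4 of 21 alternative fits (adjusted p = 0.015 to 0.213), among them a random replicate block (adjusted p = 0.0265). In the fit without a block 1.37% of all probes were lower there and 2.88% passed in either direction. At 6003 the differences were -0.38 ± 0.26 and -0.5 ± 0.26, with adjusted p = 0.736 and 0.483 in the same fit. Whether the 2 probes differ in their response was not tested.

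The members did not all move together from array to array. With each group's mean taken off, Mb and Tnnt2 correlated over the 12 heart arrays with r = 0.94, Mb and Myl2 with r = 0.86, Tnnt2 and Myl3 with r = 0.81, and Myl3 and Actc1 with r = 0.92. Myl3 and Tnnt2 had r = 0 once the 4 monocyte arrays were included. Tnnt2 was not well above background on any of those 4, so that value rests partly on dim readings. Tnnc1 and Myh6 had r = 0.82 over the 12 heart arrays, with r = -0.1 between Tnnc1 and Mb and -0.56 between Tnnc1 and Actc1. These correlations are descriptions over arrays that share slides, labelling and scaling.

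The Tnnc1 levels differed between slides. The level was above its group's mean on 6 of 6 heart arrays of slides 2 and 4 and on 0 of 6 of slides 1 and 3, with a mean deviation of 0.62 and -0.62. Myh6 at 6003 deviated by 0.26 and -0.26, while Mb deviated by -0.03 and 0.03, Tnnt2 by -0.01 and 0.01, and Actc1 by -0.24 and 0.24. For Mb and Tnnt2 these means join slides of opposite sign. On the heart arrays of slide 2 Mb deviated by -0.54, -0.43 and -0.44, and on those of slide 4 by 0.65, 0.03 and 0.53. Tnnt2 deviated by -0.31, -0.54 and -0.31 on slide 2 and by 0.53, 0.16 and 0.38 on slide 4. The grouping of slides 2 and 4 against 1 and 3 was chosen after the data were seen. How many of all features split as Tnnc1 did was not counted, so the split is not shown to be particular to Tnnc1. Actn2, a sarcomere gene that was dim on the heart arrays of slides 1 and 3, split in the same way. The SD of Tnnc1 within heart groups was 0.73, against a median of 0.45 over all features and 0.3 for Myl2. The 75th percentile of the signal was 1480 to 1670 on the heart arrays of slides 2 and 4 and 941 to 1460 on those of slides 1 and 3, and its part in the Tnnc1 levels was not tested.

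**Figure D4:**
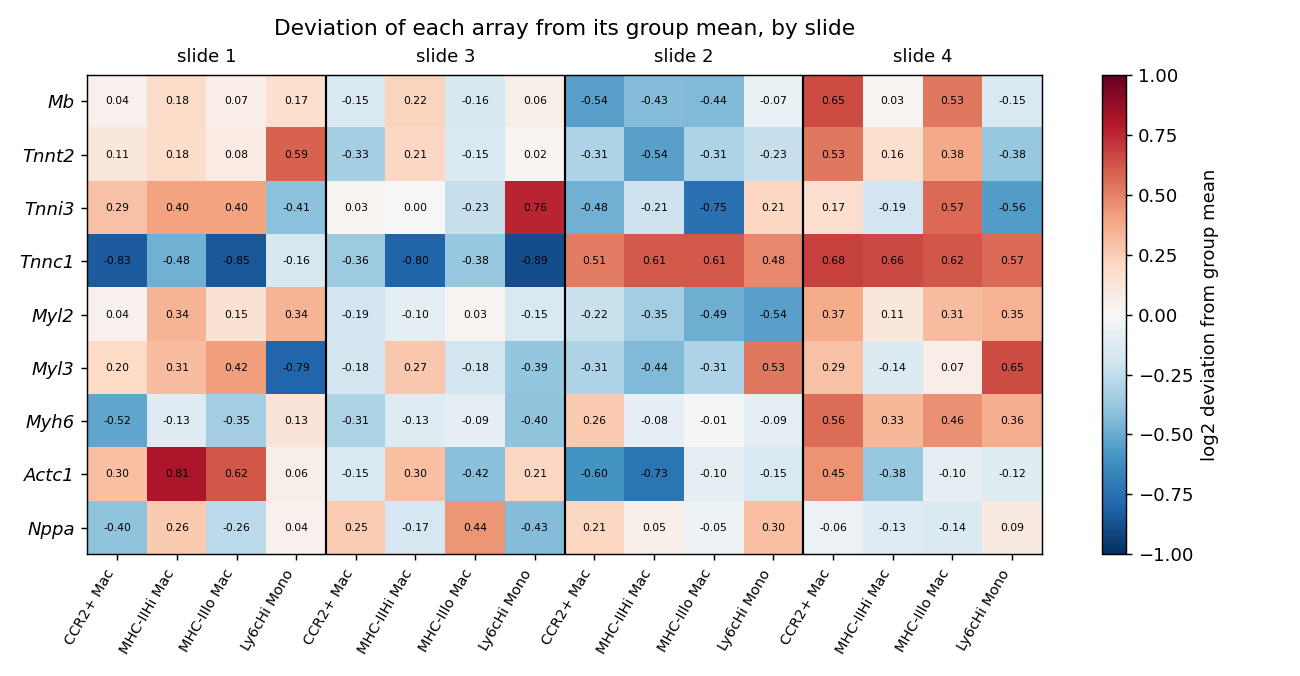
Deviation of each array from its group's mean, in log2 units, for the 9 members tested (rows) on the 16 arrays (columns, set out by slide, with slides 1 and 3 left of slides 2 and 4). Red is above and blue below the group mean; the Tnnc1 row is blue on all 8 arrays of slides 1 and 3 and red on all 8 of slides 2 and 4, while the Mb and Tnnt2 rows are blue throughout slide 2.

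Over the 16 arrays the mean of the 9 members ran from 0.95 to 1.52 in CCR2+ Mac, 1.34 to 1.78 in MHC-IIHi Mac and 1.19 to 1.7 in MHC-IIlo Mac, against -2.37 to -2.15 in Ly6cHi Mono. The monocyte values include Mb, Tnnt2 and Actc1, dim on every monocyte array, so the gap rests partly on dim signals. The named genes whose levels followed the mean of the 9 members most closely were Tubb2a-ps2 (r = 0.991), Arl4d (r = 0.991), C1qc (r = 0.989), Dab2 (r = 0.989) and C1qa (r = 0.989). These r values rest on the gap between heart and blood arrays, which C1qa and C1qc, subunits of the complement protein C1q, share. With each group's mean taken off, the closest genes were Gjd3 (r = 0.828), Ak1 (r = 0.792), Pln (r = 0.791), Ece1 (r = 0.771), Cox6a2 (r = 0.749) and Hmga2 (r = 0.724). Pln, which encodes the brake on the calcium pump of the sarcoplasmic reticulum, and Cox6a2, a heart and muscle subunit of cytochrome oxidase, are themselves heart muscle genes. All these r values are over 16 arrays and were the highest among the features tested that are not members.

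Further heart muscle genes were read from 4 lists. At an adjusted p under 0.05, 9.9%, 10.1% and 10.1% of all features were higher in CCR2+ Mac, MHC-IIHi Mac and MHC-IIlo Mac than in Ly6cHi Mono. In either direction 21.8%, 21.5% and 21.4% passed, and with the replicate block 7388, 6941 and 7047 of 21897 features did. Of 21 listed genes of the sarcomere and Z-disc 17 were tested, of which 8 were higher in CCR2+ Mac, 9 in MHC-IIHi Mac and 8 in MHC-IIlo Mac than in Ly6cHi Mono, and none was lower. The list's median difference was 0.61, 0.97 and 0.72, against -0.1, -0.05 and -0.06 over all features, and 0.34, 0.82 and 0.68 with genes that are dim in a group set at their bound. Tcap, the titin cap of the Z-disc, was 7.49-fold higher in CCR2+ Mac (2.9 ± 0.35, adjusted p = 2.54e-05), 8.37-fold in MHC-IIHi Mac and 8.95-fold in MHC-IIlo Mac than in Ly6cHi Mono. Its lowest heart level, 0.56, was above its highest monocyte level, -1.24. Myom2, which ties thick filaments at the M-band, was dim on all 4 monocyte arrays and was at least 2.49-fold higher in CCR2+ Mac, 3.49-fold in MHC-IIHi Mac and 3.58-fold in MHC-IIlo Mac. Ttn, the giant spring titin, was at least 1.22-fold, 1.89-fold and 1.83-fold higher in the same 3 groups, also against dim monocyte arrays. On replicate 1 of CCR2+ Mac, Ttn was itself not well above background, at -4.16, and that group overlapped with the monocyte arrays. With a normexp background correction the Ttn differences were 0.21, 0.64 and 0.59 (adjusted p = 0.649, 0.156 and 0.177), and none passed. Hspb7, a small heat shock protein of heart, was 3.66-fold, 5.15-fold and 4.97-fold higher, with 3 of 4 monocyte arrays well above background.

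The 2 genes of this list with the highest mean signal did not pass without the replicate block, and with it only Cryab did. Tpm1, alpha-tropomyosin, which many cell types also make, averaged 2.88, 3.12 and 3.17 in CCR2+ Mac, MHC-IIHi Mac and MHC-IIlo Mac, against 3.3 in Ly6cHi Mono (adjusted p = 0.15, 0.614 and 0.727). Cryab, a chaperone of the Z-disc, averaged 1.53, 1.16 and 1.38, against 0.77 in Ly6cHi Mono (adjusted p = 0.0557, 0.379 and 0.129). With the replicate number as a block Cryab was higher in CCR2+ Mac (adjusted p = 0.0074) and MHC-IIlo Mac (adjusted p = 0.0233), and in MHC-IIHi Mac its adjusted p was 0.135.

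Of 12 calcium-handling and membrane genes tested, 2 were higher in each heart group, and 4 in each with the replicate block. Over all features 9.9% to 10.1% were higher without the block. With it, 7388, 6941 and 7047 of 21897 features passed in either direction. Pln was among the genes of this list that were higher. Its levels on replicates 1 to 4 were -1.96, -2.98, -3.32 and -1.16 in CCR2+ Mac, -0.79, -1.6, -1.04 and -0.96 in MHC-IIHi Mac, and -1.28, -1.82, -2.49 and -1.01 in MHC-IIlo Mac, against -4.69, -4.84, -4.57 and -4.79 in Ly6cHi Mono. It was at least 1.65-fold higher in CCR2+ Mac, where 3 of 4 arrays were well above background, 3.95-fold in MHC-IIHi Mac and 2.7-fold in MHC-IIlo Mac. Slc8a1, the sodium-calcium exchanger, which monocytes also express, was lower in CCR2+ Mac (-0.89 ± 0.3, adjusted p = 0.0427), a call kept in 16 of 29 alternative settings (adjusted p = 0.0168 to 0.269). Atp2a2, the calcium pump that Pln acts on, averaged 0.32, 0.1 and 0.1 in the heart groups against -0.01 in Ly6cHi Mono and did not pass. The list's median difference was 0.3, 0.63 and 0.15, and 0.19, 0.35 and 0.06 with dim genes at their bound.

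Energy genes were found in both directions. Of 14 tested, 4 were higher and 3 lower in CCR2+ Mac, 5 higher and 3 lower in MHC-IIHi Mac, and 4 higher and 2 lower in MHC-IIlo Mac than in Ly6cHi Mono. Those higher in all 3 were Cox6a2, Cox7a1 and Cox8b, muscle forms of cytochrome oxidase subunits, and Fabp3, the fatty acid binding protein of heart. Cox7a1 was 5.78-fold higher in CCR2+ Mac (2.53 ± 0.2, adjusted p = 3e-07), 6.13-fold in MHC-IIHi Mac and 6.22-fold in MHC-IIlo Mac, and Cox6a2 was 4.34-fold, 6.76-fold and 6.53-fold higher. Ckm, muscle creatine kinase, was higher in MHC-IIHi Mac (1.17 ± 0.32, adjusted p = 0.0162), a call kept in 22 of 29 alternative settings, while the differences in CCR2+ Mac and MHC-IIlo Mac were 0.43 and 0.87 and did not pass, although MHC-IIlo Mac passed with the replicate block (adjusted p = 0.0097). Only 2 of 4 monocyte arrays measured Ckm above background. The lower genes were Ldhb and Eno3 in all 3 groups, with Ldhb differences of -2.68 ± 0.39, -2.17 ± 0.39 and -3.34 ± 0.39, Cpt1b in CCR2+ Mac (-0.74 ± 0.24) and Ucp3 in MHC-IIHi Mac (-0.82 ± 0.27). The Cpt1b call was kept in 21 of 29 alternative settings and the Ucp3 call in 9 of 29 (adjusted p = 0.00715 to 0.249). Ucp3 was at 4.33 on replicate 4 of MHC-IIHi Mac, and without that array the difference was -0.49 (adjusted p = 0.121). With the replicate block Ucp3 was lower in CCR2+ Mac, MHC-IIHi Mac and MHC-IIlo Mac (adjusted p = 0.0339, 0.00919 and 0.0456). Slc25a4, the mitochondrial carrier of ADP and ATP, averaged 2.84, 2.86 and 2.99 in the heart groups against 2.96 in Ly6cHi Mono and did not pass (adjusted p = 0.62, 0.74 and 0.929). Ldhb and Eno3 are glycolytic enzymes that blood cells make as well. Fabp3, Ckm and Cpt1b were named after their values were seen.

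Of 8 atrial and hormone genes tested, none was higher in CCR2+ Mac, 2 were higher in MHC-IIHi Mac and 1 in MHC-IIlo Mac, and none was lower. With the replicate block 1, 2 and 2 were higher and 1, 2 and 1 lower. Over all features the block called many too, 7388, 6941 and 7047 of 21897 in either direction. The share of all features higher with the block is not given, so these block counts do not set the list apart. Mef2c, a transcription factor of muscle and of myeloid cells, was higher in MHC-IIHi Mac (1.08 ± 0.23, adjusted p = 0.00318) and MHC-IIlo Mac (0.87 ± 0.23, adjusted p = 0.0136), and in CCR2+ Mac its difference of 0.38 had adjusted p = 0.288, and 0.0492 with the replicate block. Myl4, the atrial light chain, was higher in MHC-IIHi Mac (1.12 ± 0.36, adjusted p = 0.039) although the groups overlapped, a call kept in 17 of 29 alternative settings, and was named after its value was seen. Nppb, which encodes the B-type natriuretic peptide, averaged 1.66, 1.31 and 1.56 in the heart groups against 1.94 in Ly6cHi Mono and did not pass (adjusted p = 0.41, 0.0508 and 0.274), while with the replicate block it was lower in MHC-IIHi Mac (adjusted p = 0.00265) and MHC-IIlo Mac (adjusted p = 0.0439). Between heart macrophage groups, none of the genes tested in these 4 lists passed limma's test without the block, and with it Mef2c was lower in CCR2+ Mac than in MHC-IIHi Mac (adjusted p = 0.0194, against 0.24 without it).

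**Figure D5:**
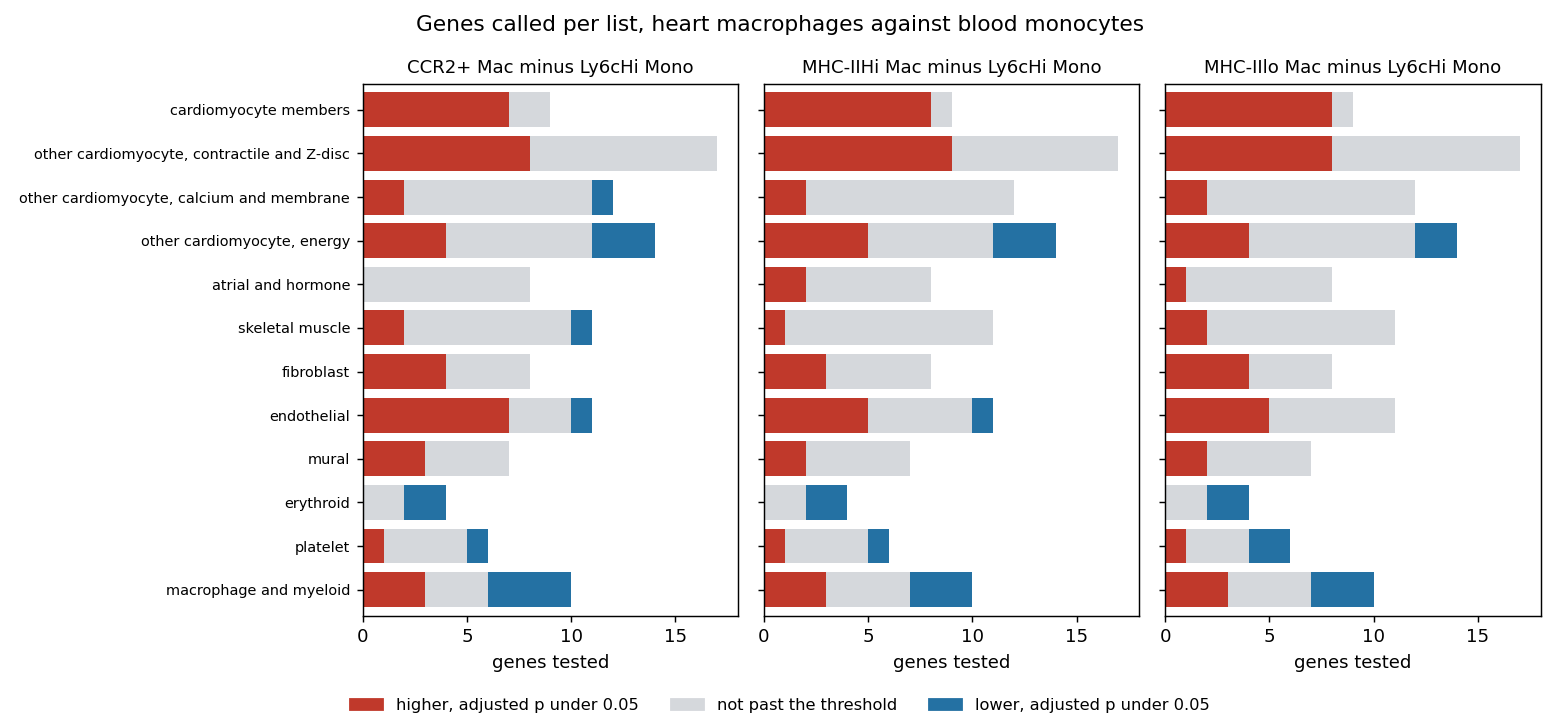
Genes of each list that were higher (red), lower (blue) or not past an adjusted p of 0.05 (grey) in each heart macrophage group against Ly6cHi Mono, 1 panel per group, with the horizontal axis counting genes tested. The cardiomyocyte members have the longest red share, with 7 to 8 of 9, and the sarcomere and Z-disc list has 8 or 9 of 17, while fibroblast, endothelial and mural lists also have red parts and the erythroid list has no red part.

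Skeletal muscle genes were read as a list of another striated muscle. For this list and those below, the shares over all features are again 9.9% to 10.1% higher. In either direction 21.4% to 21.8% passed, and the replicate block called more features than the fit without it. With the block 7388, 6941 and 7047 of 21897 features passed in either direction, and the share that was higher is not given. Of 11 tested, 2, 1 and 2 were higher in CCR2+ Mac, MHC-IIHi Mac and MHC-IIlo Mac than in Ly6cHi Mono, with median differences of -0.12, 0.2 and 0.1, and 1, 0 and 0 were lower. With the replicate block 3, 3 and 2 were higher and 2, 1 and 1 lower. Tnni2, fast skeletal troponin I, was lower in CCR2+ Mac (-1.74 ± 0.59, adjusted p = 0.0483, and 0.00158 with the replicate block), a call kept in 12 of 29 alternative settings, and its CCR2+ arrays (1.75 to 3.14) overlapped with the monocyte arrays (2.58 to 5.32). In MHC-IIHi Mac and MHC-IIlo Mac its adjusted p was 0.0577 and 0.0842, and 0.00197 and 0.00358 with the replicate block. Tnnt1, slow skeletal troponin T, had levels of 0.91, 0.5, 0.41 and 0.66 in CCR2+ Mac, 1.44, 1.12, 1.54 and 1.65 in MHC-IIHi Mac, and 1.36, 1.42, 1.69 and 1.51 in MHC-IIlo Mac, against 0.16, -0.43, -0.31 and -0.36 in Ly6cHi Mono. The CCR2+ arrays lay between those of the other heart groups and those of the monocytes with no overlap. Tnnt1 was lower in CCR2+ Mac than in MHC-IIHi Mac (-0.82 ± 0.19, adjusted p = 0.0469) and in MHC-IIlo Mac (-0.87 ± 0.19, adjusted p = 0.0177). The first of these calls was kept in 10 of 29 alternative settings and the second in 20 of 29.

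Markers of other heart cells were read beside the members. Of 8 fibroblast genes tested, 4, 3 and 4 were higher in CCR2+ Mac, MHC-IIHi Mac and MHC-IIlo Mac than in Ly6cHi Mono (5 in each with the replicate block), and the list's mean level per array ran from -1.23 to -0.56, -1.34 to -0.76 and -1.25 to -0.43, against -2.87 to -2.37 in Ly6cHi Mono. Dcn, the collagen-binding proteoglycan decorin, was dim on all 4 monocyte arrays and at least 20.7-fold higher in CCR2+ Mac, 36.6-fold in MHC-IIHi Mac and 43.7-fold in MHC-IIlo Mac. Col1a2, a chain of type I collagen, was 4.34-fold, 3.07-fold and 4.17-fold higher. On the monocyte arrays, Col1a1, Dcn and Tcf21 were not well above background on any.

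Of 11 endothelial genes, 7, 5 and 5 were higher and 1, 1 and 0 lower, and the list's mean level was -0.83 to -0.31 in CCR2+ Mac, -1.42 to -0.56 in MHC-IIHi Mac and -1.32 to -0.68 in MHC-IIlo Mac, against -2.19 to -1.76 in Ly6cHi Mono. Egfl7, a factor secreted by vessel lining cells, was 9.24-fold, 9.03-fold and 7.47-fold higher, and Cav1, the coat protein of caveolae, averaged 0.36, -0.13 and -0.15 against -2.81 in Ly6cHi Mono and was higher in all 3 (adjusted p = 2.14e-05, 8.03e-05 and 8.05e-05), with only 2 of 4 monocyte arrays well above background. All 11 endothelial differences of CCR2+ Mac from MHC-IIHi Mac were above 0, with a median of 0.41 against -0.03 over all features. All 9 cardiomyocyte members had differences below 0 in that pair, and no gene of either list passed there. The genes of a list share arrays and are not replicates of a difference, and the 2 lists were not tested against each other. Of 7 mural genes, 3, 2 and 2 were higher, and the list's mean level was -1.46 to -0.65 in CCR2+ Mac, -1.06 to -0.82 in MHC-IIHi Mac and -1.32 to -0.78 in MHC-IIlo Mac, against -2.23 to -1.63 in Ly6cHi Mono. Rgs5, a pericyte marker, was at least 2.16-fold, 3.43-fold and 2.31-fold higher against dim monocyte arrays, and Abcc9, a potassium channel subunit of pericytes, was higher too, with means of -1.27, -0.88 and -1.53 in the heart groups against -3.81 in Ly6cHi Mono (adjusted p = 0.00358, 0.00109 and 0.00672), where only 2 of 4 arrays measured it above background, so no fold is given. Cspg4, the pericyte proteoglycan NG2, was higher in CCR2+ Mac than in MHC-IIHi Mac (1.42 ± 0.29, adjusted p = 0.0251), a call kept in 22 of 29 alternative settings. The part of any of these cells in the cardiomyocyte readings was not tested.

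Markers of blood cells were read in the same way. Hba-a1, alpha-globin, was lower in CCR2+ Mac (-6.26 ± 0.6, adjusted p = 2.36e-06), in MHC-IIHi Mac (-4.86 ± 0.6, adjusted p = 2.22e-05) and in MHC-IIlo Mac (-5.57 ± 0.6, adjusted p = 5.15e-06) than in Ly6cHi Mono, and Alas2, the heme synthesis enzyme of red cells, was lower in all 3. Of 4 erythroid genes tested, 2 were lower in each heart group and none was higher. Among 6 platelet genes, Ppbp was lower in all 3, Gp9 was lower in MHC-IIlo Mac (3, 2 and 3 genes were lower with the replicate block), and Pf4, which heart macrophages are known to make, was 20.5-fold, 44.9-fold and 64.2-fold higher.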

How the data were processed

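RNA of 16 sorted samples, 4 per group, was hybridised to single-colour Agilent arrays. The deposited spot intensities are processed signals made with Agilent Feature Extraction 11.5.1.1, per the file headers, which subtracted background and detrended each array without scaling between arrays. Text headings did not match the contents in 16 files, and columns were identified by what they hold. The deposited log2 value table, for which the submitters' processing notes name Partek, was compared with the scanner arrays and not used for results.

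Control spots and spots marked as outliers were left out, spots of a probe were averaged, and log2 signals were centred on each array's 75th percentile. Probes well above background on at least 4 of 16 arrays were kept (27643), and the brightest probe stood for a gene. Of 39429 probes, 27502 were named by accession, 3549 by the file's symbol and 397 by a synonym, and 7981 kept the file's name. All 16 arrays were fitted with limma 3.58.1 in R 4.3.3, with 1 mean per group, no block and 12 residual degrees of freedom. P-values were adjusted by Benjamini-Hochberg over 21897 features, with a threshold of 0.05. The procedure was tested on simulated data with known changes in CCR2+ Mac. Those data had independent errors and no slide effect, so the test does not cover the pairing of these arrays. The number of arrays limits the precision.

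Same-numbered arrays share a slide, per the file headers, and deviated together from their group means (24 pairs, r 0.14 to 0.64, median 0.34). The numbers therefore pair the arrays by slide, and whether they also pair cells of the same mice is not known. Between slides the median r was -0.19, but taking off group means itself pulls that value below 0, so it adds no separate support. Slide was tested as a fixed and as a random block (correlation 0.403). The members, gene lists and tests were chosen with earlier results of these data known. Every member is named, as are the called genes of other heart muscle lists (at most 8 per comparison), the 2 brightest of each of those lists, the 6 genes with the highest r in each likeness measure and at most 3 called genes of each list of another cell type. Alternatives changed the block, background correction, scaling, filter, probe choice, outlier spots and arrays. One gene that this rule names is not reported here.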

Additional observations from a re-analysis of the deposited data

Results flagged for a closer look

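Of 44 groups of 4 arrays, 11 member probes in each of 4 sorted groups, 2 held an array far from the other 3, and chance alone marks about 1 group in 20. Tnnt2 was at 0.8 on the MHC-IIHi Mac array of slide 2, while the other MHC-IIHi Mac arrays lay between 1.5 and 1.55. Myh6 at 6003 was at 3 on the MHC-IIHi Mac array of slide 4, while the other 3 lay between 2.53 and 2.58.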

How the results depend on the processing

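Over 29 alternatives the number of members higher than in Ly6cHi Mono was 7 to 8 in CCR2+ Mac, 7 to 9 in MHC-IIHi Mac and 7 to 9 in MHC-IIlo Mac, and 0 passed between macrophage groups. With the replicate block the counts were 8, 9 and 9, the added member being Tnnc1; over all features the block called 7388, 6941 and 7047 against Ly6cHi Mono, where the fit without it called 4783, 4709 and 4687. Tnnc1 also passed with slides 2 and 4 alone (adjusted p = 0.036, 0.00992 and 0.00906), an alternative added after the data were seen, and with a random block in MHC-IIHi Mac (0.0453) and MHC-IIlo Mac (0.035). Nppa in MHC-IIHi Mac against Ly6cHi Mono lost its call with normexp (0.18, adjusted p = 0.549), quantile scaling (0.0561), median scaling (0.104), only the 2 groups compared (0.0732), slides 2 and 4 alone (0.145), slides 1 and 3 alone (0.222), without MHC-IIHi Mac replicates 1, 2 or 4 (0.0993, 0.0818 and 0.0546) and without Ly6cHi Mono replicates 1, 3 or 4 (0.0659, 0.124 and 0.0575). In MHC-IIlo Mac it lost its call with normexp and with slides 1 and 3 alone (adjusted p = 0.0901). Signs turned only for differences that had not passed. They were Nppa in CCR2+ Mac against Ly6cHi Mono (-0.03 with normexp), Tnni3 (-0.02) and Myl2 (0.09) in CCR2+ Mac minus MHC-IIlo Mac with slides 2 and 4 alone, and Myh6 in MHC-IIHi Mac minus MHC-IIlo Mac with the mean of its probes (0.07). Leaving out 1 array at a time gave ranges across 0 for CCR2+ Mac minus MHC-IIlo Mac in Actc1 (-0.28 to 0.07), Myl2 (-0.24 to 0.03) and Tnni3 (-0.2 to 0.24), for CCR2+ Mac minus MHC-IIHi Mac in Tnnc1 (-0.5 to 0.04), and for MHC-IIHi Mac minus MHC-IIlo Mac in Myh6 (-0.24 to 0.03) and Tnnc1 (-0.33 to 0.22). The cause of these changes was not tested. The sarcomere and Z-disc list ranged from 2 to 10 higher in CCR2+ Mac, 5 to 12 in MHC-IIHi Mac and 4 to 10 in MHC-IIlo Mac, the endothelial list from 2 to 9, 2 to 6 and 2 to 6, and the fibroblast list from 1 to 5 in each. With normexp the median of all features against Ly6cHi Mono moved to -0.25, -0.2 and -0.22 in the 3 groups. Of 136 calls of list genes, 136 kept their sign and 52 their call under all alternatives. All arrays were scanned on 1 day, so the alternative of single scan dates was not run.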
